A study of Rattus norvegicus with 12 samples.

Results

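The genes described here are 40 genes of mitosis and the spindle checkpoint, chosen by name. They were measured in a rat oligodendroglial cell line that expresses alpha-synuclein and was transfected with p25alpha or an empty vector. For each gene the probe set with the highest mean log2 signal over the 12 arrays was used, among those called present (above background) on at least 2 arrays. Of the 40 genes 33 had such a probe set among the 31096 on the array, all 33 present on 12 of 12 arrays. Cdc25c, Nek2, Tpx2, Ndc80, Ncapg, Anln and Ect2 have no probe set named here. All cells were OLN cells, a rat oligodendroglial line, and stably expressed alpha-synuclein, the protein that aggregates in Parkinson's disease and multiple system atrophy. They were transfected with Fugene-6 and either an empty control vector (mock) or pcDNA3.1 carrying p25alpha, a tubulin-binding protein of oligodendrocytes also called TPPP. RNA was taken 8, 12 and 16 h later in 2 numbered experiments, which gave 6 groups of 2 Affymetrix arrays, 1 per experiment. The mock groups thus carried alpha-synuclein alone, and the p25alpha groups both proteins. The labels do not say whether the line is 1 clone, what share of the cells took up the plasmid, or whether the experiments used separate cultures, so the p-values rest on differences between arrays that may in part be technical.

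A cell enters mitosis when cyclin B and CDK1 form an active kinase. Polo-like and aurora kinases then build the spindle, the spindle checkpoint holds the cell until every kinetochore is attached, and the anaphase promoting complex ends mitosis by marking cyclin B and securin for destruction. The transcripts of these proteins are made mainly in G2 and M phase, so in a bulk culture they are used as a measure of proliferation. Their promoters commonly hold CCAAT boxes, which the factor NF-Y binds, and the cell cycle homology region TTTGAA, through which the DREAM and MuvB complexes act. From bulk RNA, fewer cells in mitosis and less RNA per cell cannot be told apart.

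The promoters are shown because the genes were, as described further on, lower together at the later times. Of the 40 genes 34 matched a RefSeq promoter of assembly GRCr8 (Ccna2, Tpx2, Aurkb, Incenp, Ube2c and Racgap1 did not). In the 250 bases before the start of the gene, CCAAT or its complement ATTGG stood in 27 of 34 (79.4%) against 34% of all 33469 promoters of the same length. TTTGAA or its complement TTCAAA stood in 19 (55.9%) against 16.2%, and both motifs stood in 18 (52.9%) against 5.87%. A match is a run of letters on either strand and not a measured binding site. The 150 bases before the start are printed for 5 genes with both motifs in that stretch (Cdk1, Cdc20, Spc25, Prc1 and Top2a) and for 3 that differ from them. Birc5 has only TTTGAA in the stretch, Plk1 only CCAAT, and Aurka neither. Capitals mark the motifs, which do not overlap in these 8 sequences.
Cdk1 (chr20:19265143-19265292, + strand): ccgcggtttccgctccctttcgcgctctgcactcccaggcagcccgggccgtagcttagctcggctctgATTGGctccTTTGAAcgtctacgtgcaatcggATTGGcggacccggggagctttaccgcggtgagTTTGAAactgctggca
Cdc20 (chr5:137255800-137255949, - strand): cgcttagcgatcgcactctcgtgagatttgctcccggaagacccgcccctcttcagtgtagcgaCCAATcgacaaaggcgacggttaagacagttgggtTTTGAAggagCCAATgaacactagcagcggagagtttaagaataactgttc
Spc25 (chr3:74396719-74396868, - strand): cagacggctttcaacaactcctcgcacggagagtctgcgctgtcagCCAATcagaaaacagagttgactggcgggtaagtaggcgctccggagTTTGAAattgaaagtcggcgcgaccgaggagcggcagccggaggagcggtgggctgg
Prc1 (chr1:143659331-143659480, + strand): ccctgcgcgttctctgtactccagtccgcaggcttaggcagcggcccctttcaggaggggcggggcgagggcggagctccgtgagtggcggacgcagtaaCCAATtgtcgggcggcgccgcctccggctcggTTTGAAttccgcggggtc
Top2a (chr10:84473094-84473243, - strand): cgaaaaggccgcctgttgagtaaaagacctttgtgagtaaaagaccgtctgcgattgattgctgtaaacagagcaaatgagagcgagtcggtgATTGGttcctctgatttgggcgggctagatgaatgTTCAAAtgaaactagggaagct
Birc5 (chr10:103571996-103572145, + strand): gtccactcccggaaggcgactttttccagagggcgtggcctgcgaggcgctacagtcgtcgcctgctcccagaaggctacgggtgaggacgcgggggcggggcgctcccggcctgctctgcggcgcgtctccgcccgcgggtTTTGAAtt
Plk1 (chr1:186147508-186147657, + strand): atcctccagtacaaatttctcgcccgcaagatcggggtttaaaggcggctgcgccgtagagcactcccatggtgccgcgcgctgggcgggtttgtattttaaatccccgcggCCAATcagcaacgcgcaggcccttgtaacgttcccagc
Aurka (chr3:181560770-181560919, - strand): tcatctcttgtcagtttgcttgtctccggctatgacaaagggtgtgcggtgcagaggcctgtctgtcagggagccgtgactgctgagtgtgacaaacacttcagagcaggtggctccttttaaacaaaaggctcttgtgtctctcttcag
Of the genes with both a promoter and a probe set, the 22 with TTTGAA in the window from 250 bases before to 50 after the start had a median difference between 16 and 8 h of -0.33 on the log2 scale, and the 6 without it (Ccnb1, Cdc25b, Aurka, Bub1, Bub3 and Cenpe) one of -0.41. With CCAAT in the window the median was -0.40 over 23 genes, and without it -0.27 over the 5 genes Aurka, Bub1, Bub1b, Mad2l1 and Nuf2. Aurka and Bub1, which hold neither motif there, differed by -0.38 ± 0.10 (SE) and -0.27 ± 0.12. These are descriptions of 28 genes, and a gene without these letters in this window may hold them elsewhere. Only the exact letters at the annotated start were searched, and the part of the motifs in the difference with time was not tested.

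The arrays were close in depth of detection, with 49.3% to 55.2% of probe sets called present, and their number, 2 per group, limits the precision. The labelled cell type was checked by 14 oligodendrocyte markers, of which 8 were present on 12 arrays, Mobp, Mal and Olig2 on 0, and Mbp on at most 5. Of 7 microglia markers 0 were present on 12 arrays and 5 on none. Of 7 astrocyte markers 4 (Gfap, Slc1a3, Gja1 and S100b) were present on 12 arrays, and of 10 neuron markers 2 (Nefm and Gad1). Presence calls alone thus do not single out the oligodendrocyte lineage. No probe set carries the symbol Tppp, so the expressed gene could not be followed here. The arrays of experiment 1 and experiment 2 differed, and all tests below keep the experiment as a block. Tests were limma's moderated tests over 19248 probe sets with Benjamini-Hochberg adjustment, called at an adjusted p under 0.05. Signals are MAS5 intensities, which can be compared between arrays and not between genes.

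The first question was how these transcripts differed between 8 and 16 h after transfection. All 33 measured genes had a lower fitted level at 16 h than at 8 h, averaged over both arms, where 54.3% of all tested probe sets did. Their median difference was -0.38 on the log2 scale (range -0.74 to -0.07), against -0.02 over all tested probe sets. Nusap1, Ube2c, Birc5 and Plk1 were lowest at 16 h relative to 8 h, by 1.67-, 1.63-, 1.55- and 1.53-fold. Smc2, Racgap1 and Mad2l1 differed least.

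No single gene of the 33 passed the adjusted threshold, and neither did any other probe set in that direction (0% of 19248 lower and 0.0156% higher). Lower at an unadjusted p under 0.05 were 21 of 33, where the share of all tested probe sets was 5.71%, and 0 of 33 were higher, where it was 4.38%. In 4 of 4 pairs of arrays, each 16 h array against the 8 h array of its arm and experiment, 21 genes were lower (all tested 10.1%) and 0 were higher (8.34%). The signals of the 16 h arrays all lay below those of the 8 h arrays in 6 genes, Cdc25b, Aurkb, Incenp, Ube2c, Spc25 and Racgap1 (all tested 1.21%). For Racgap1 the gap was narrow, 1838 at 16 h against 1843 at 8 h, both in mock cells of experiment 1. The same 8 genes (Birc5, Cdc20, Cenpf, Nusap1, Plk1, Prc1, Spc25 and Ube2c) passed the adjusted threshold under each of 3 other settings, where more probe sets passed in all. These were a filter that kept probe sets above the median signal, 50 added to each signal before the log, and moderation with trend and robust, and 150, 176 and 164 of all tested probe sets passed under them. Without the experiment as a block 0 passed, and 8 in place of 21 were lower at an unadjusted p under 0.05. The share of all tested probe sets at that unadjusted p without the block is not given here.

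**Figure D1:**
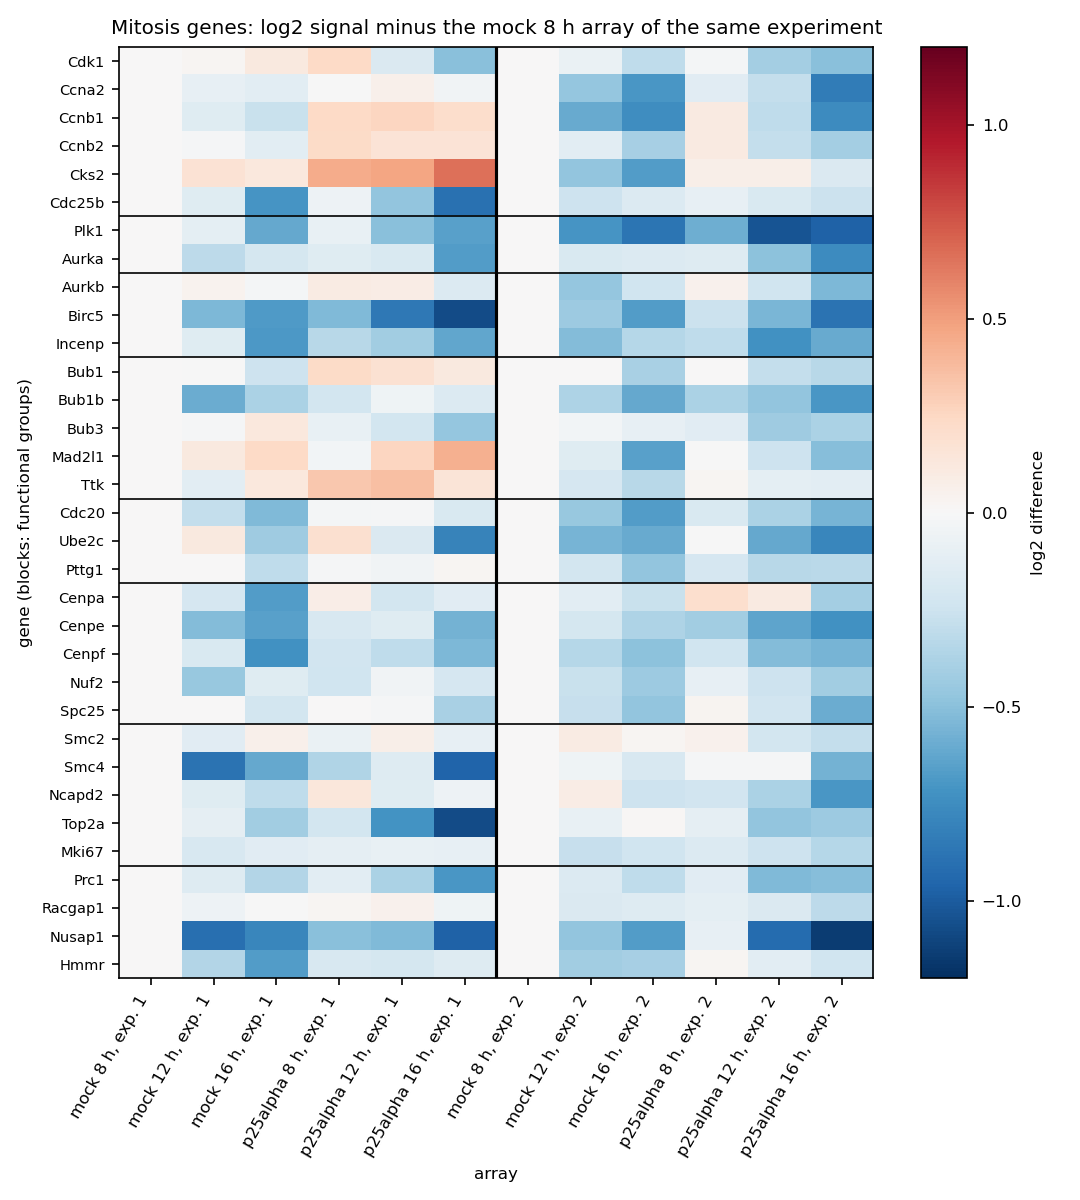
Log2 signal of the 33 measured genes (rows, in blocks by function) on the 12 arrays (columns, by experiment, arm and time), minus the mock 8 h array of the same experiment, so that the first column of each experiment is 0. Blue cells, lower than that array, fill most of the 16 h columns, with 27 and 31 of 33 genes lower in the mock pairs of experiments 1 and 2.

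Measures of the arrays moved with time too. The actin 3′ over 5′ signal ratio, which is higher when RNA is shorter or copied less fully, went in mock cells from 2.14 at 8 h to 2.6 at 16 h in experiment 1 and from 4.65 to 7.05 in experiment 2. In p25alpha cells it went from 2.4 to 3.12 and from 4.74 to 6.08. The same ratio of GAPDH lay between 0.898 and 1.09 on all 12 arrays. Of 8 fibroblast and smooth muscle markers 3 were present on 12 arrays and Col1a2 and Dcn on 0. Vim, which many cultured cell types express, made up 94.3% to 97.4% of the summed signal of this list, a sum over different probes. Vim alone read 7082 and 7875 on the mock arrays at 8 h and 9604 and 8956 at 16 h, and 8069 and 7799 then 8283 and 9046 in p25alpha cells (0.22 ± 0.09, limma adjusted p = 0.472). The other markers summed to 292 to 384 at 8 h and 361 to 384 at 16 h in mock cells, and to 207 to 451 and 232 to 404 in p25alpha cells, so they overlapped between the times. Over the 6 tested markers the median was 0.15, with Acta2 (-0.54 ± 0.38) and Tagln (-0.32 ± 0.54) below 0 and 0 past the threshold. The part of the ratio and of Vim in the lower mitosis signals was not tested.

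In the single pairs, the median difference of the 33 genes between 16 and 8 h was -0.30 and -0.39 in mock cells of experiments 1 and 2, and -0.22 and -0.37 in p25alpha cells. The corresponding medians over all tested probe sets were -0.05, 0.01, -0.05 and 0.02. Lower at 16 h were 27 and 31 of 33 genes in the mock pairs and 26 and 33 in the p25alpha pairs, against 46.9% to 55.7% of all tested probe sets. All 4 pairs thus pointed the same way for most of the genes, and experiment 2 held the larger median in each arm.

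**Figure D2:**
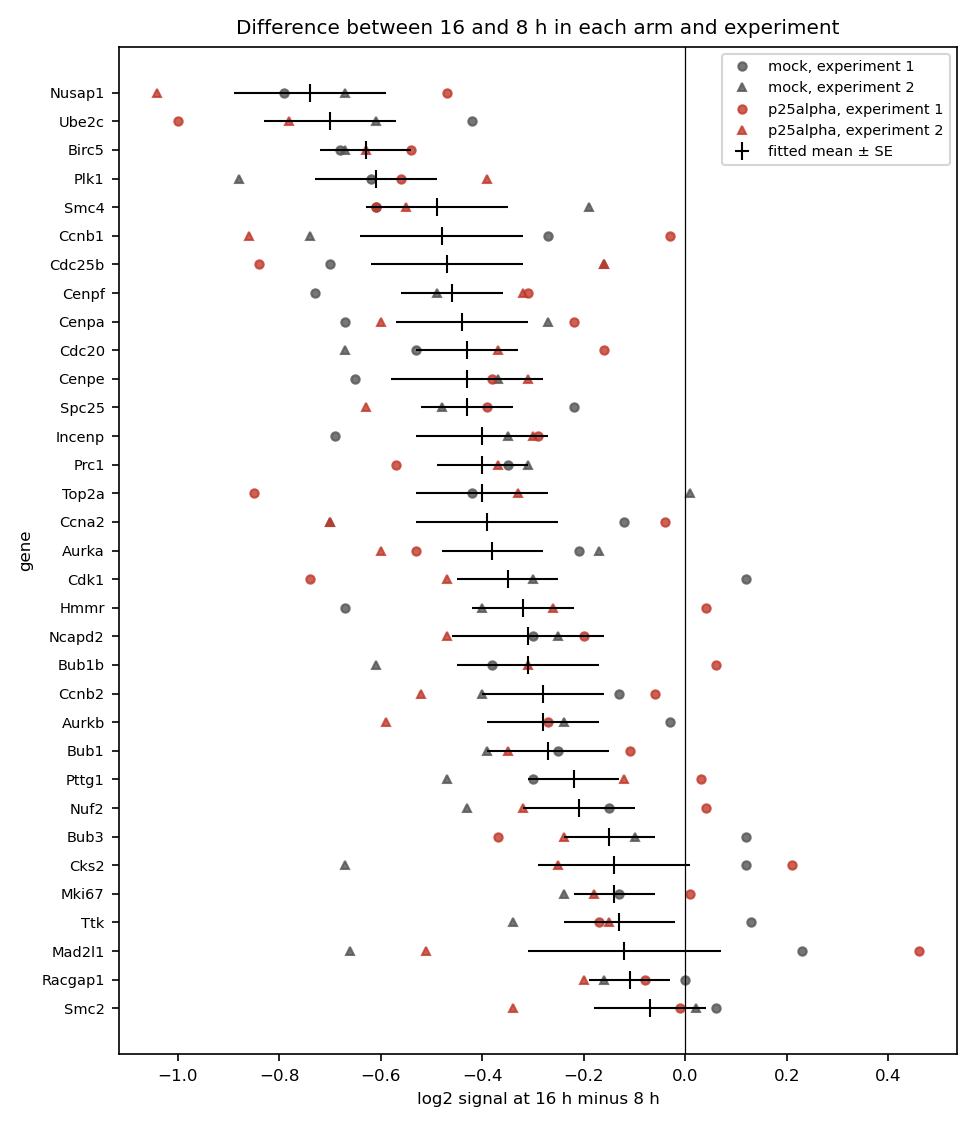
Log2 signal at 16 h minus 8 h (x axis) for each of the 33 genes (y axis, ordered by the fitted mean of both arms), with 1 point per arm and experiment and the fitted mean ± SE as a black bar. Fitted means run from -0.74 for Nusap1 to -0.07 for Smc2, and single points lie right of 0 for 12 genes.

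**Figure D3:**
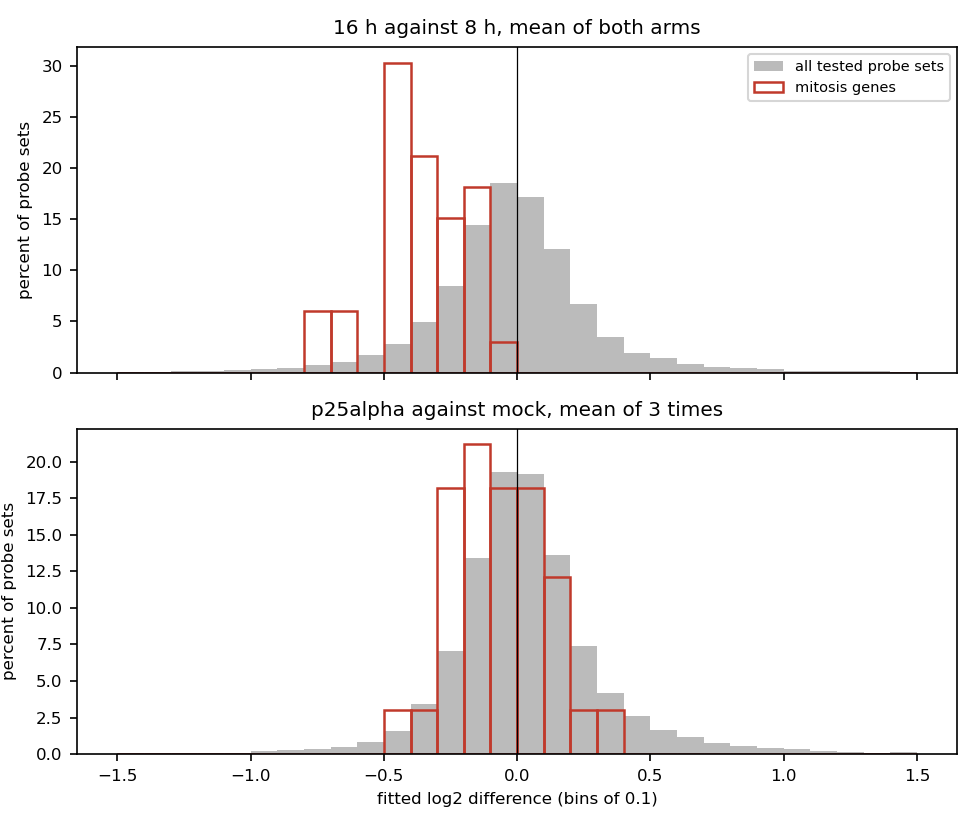
Share of probe sets (y axis, percent) by fitted log2 difference in bins of 0.1 (x axis), for all 19248 tested probe sets (grey) and the 33 mitosis genes (red outline). Differences beyond 1.5 are not drawn. Between 16 and 8 h (upper panel) the genes lie left of 0 with a median of -0.38, and between p25alpha and mock cells (lower panel) they lie about 0 with a median of -0.04.

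Among the genes that switch on CDK1, all 6 measured had estimates below 0, with a median of -0.37, and 4 were lower at an unadjusted p under 0.05. Cdk1 encodes the kinase itself. Its signal at 8, 12 and 16 h was 1472, 1492 and 1595 in mock cells of experiment 1 and 1885, 1787 and 1529 in experiment 2. In p25alpha cells it was 1739, 1303 and 1040.0 in experiment 1 and 1849.5, 1425 and 1336 in experiment 2. The p25alpha arrays were lower at each step in both experiments, and the mock array of experiment 1 was highest at 16 h, so Cdk1 differed by -0.61 ± 0.14 in p25alpha cells (limma unadjusted p = 0.0041, adjusted p = 0.501) and -0.09 ± 0.14 in mock cells (adjusted p = 0.923).

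Ccnb1, cyclin B1, the partner that activates CDK1, measured 1144, 1036 and 949 in mock cells of experiment 1 and 1419.8, 933 and 849 in experiment 2. The p25alpha series read 1352, 1364 and 1321 in experiment 1 and 1530.4, 1151 and 841 in experiment 2. Experiment 2 gave the lower 16 h signals, and the p25alpha series of experiment 1 was nearly level, the fitted difference over both arms being -0.48 ± 0.16 (adjusted p = 0.414). A second Ccnb1 probe set gave -0.59 ± 0.09 (limma unadjusted p = 0.000236), with -0.54 in mock and -0.64 in p25alpha cells. Of the others, Ccna2 (cyclin A2) differed by -0.39 ± 0.14, Ccnb2 (cyclin B2) by -0.28 ± 0.12 and Cdc25b, the phosphatase that removes inhibitory phosphates from CDK1, by -0.47 ± 0.15. Cks2, a small subunit that binds CDK1, differed by -0.14 ± 0.15 with 2 pairs of arrays on each side of 0.

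Plk1 and Aurka, kinases that act on centrosomes and the spindle, had estimates below 0. Plk1, polo-like kinase 1, which acts at centrosomes, kinetochores and the midzone, measured 629.8, 579 and 410.2 in mock cells of experiment 1 and 549, 336 and 299 in experiment 2. The p25alpha arrays read 591, 446 and 402 in experiment 1 and 366, 268 and 279 in experiment 2. Every 16 h array was below its own 8 h array, but the 16 h arrays of experiment 1 were above the p25alpha 8 h array of experiment 2, and the difference was -0.61 ± 0.12 (adjusted p = 0.227). Aurka, aurora kinase A of the spindle poles, was, in mock cells, 395, 318 and 342 in experiment 1 and 317, 278 and 282 in experiment 2. The p25alpha arrays gave 357, 348 and 248 in experiment 1 and 284, 225 and 187 in experiment 2. It differed by -0.57 ± 0.14 in p25alpha cells and -0.19 ± 0.14 in mock cells, and that contrast between arms was itself -0.38 ± 0.19 (limma unadjusted p = 0.0926, adjusted p = 1).

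The chromosomal passenger complex corrects faulty spindle attachments, and its 3 measured members had a median of -0.40. Birc5 (survivin), which brings the complex to the centromere, had the smallest p of the 33 genes. Its mock series read 655, 449.8 and 408 in experiment 1 and 422, 312 and 266 in experiment 2. The p25alpha series read 455, 362 and 312 in experiment 1 and 353, 288 and 228 in experiment 2. Each of the 4 series was lower at 12 than at 8 h and lower again at 16 h, although the levels of experiment 1 at 16 h overlapped those of experiment 2 at 8 h. The difference was -0.63 ± 0.09 over both arms (limma unadjusted p = 0.000236, adjusted p = 0.139). Aurkb, the kinase of the complex, differed by -0.28 ± 0.11, and Incenp, its scaffold, by -0.40 ± 0.13. Incenp has a dim further probe set (signals of 29.2 to 71.4) that gave 0.10 ± 0.14 in mock and -0.91 ± 0.14 in p25alpha cells, against -0.52 ± 0.19 and -0.29 ± 0.19 by the brightest, so its probe sets disagree on the arms.

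Among the 8 groups of genes, the spindle checkpoint had the median nearest 0, -0.15 over 5 genes, and 0 of 5 at an unadjusted p under 0.05. Bub1, a kinase that recruits the checkpoint to kinetochores, differed by -0.27 ± 0.12 and was lower in 4 of 4 pairs. Bub1b (BubR1), which inhibits CDC20, differed by -0.31 ± 0.14. Mad2l1 (MAD2), the other CDC20 inhibitor, differed by -0.12 ± 0.19, higher at 16 h in both pairs of experiment 1 and lower in both of experiment 2. Ttk (MPS1), the kinase that starts checkpoint signalling, differed by -0.13 ± 0.11. Bub3, which docks BUB1 and BubR1 on kinetochores, measured, in mock cells, 2378, 2362 and 2593 in experiment 1 and 2059, 2007 and 1924 in experiment 2. Its p25alpha signals were 2233, 2046 and 1727 in experiment 1 and 1875, 1532 and 1586 in experiment 2. It differed by 0.01 ± 0.13 in mock cells and was lower in both p25alpha pairs (-0.31 ± 0.13), while a dimmer probe set gave -0.44 ± 0.13 over both arms. That probe set gave -0.33 ± 0.18 in mock and -0.55 ± 0.18 in p25alpha cells, so it did not share the level course in mock cells.

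The genes that end mitosis had a median of -0.43, and all 3 were lower at an unadjusted p under 0.05. Cdc20 activates the anaphase promoting complex. Its mock series read 703, 578 and 489 in experiment 1 and 641, 467 and 403 in experiment 2. Its p25alpha signals were 694, 696 and 619 in experiment 1 and 564, 493 and 435 in experiment 2. The mock series were lower at each step, and p25alpha experiment 1 was level until 12 h. The difference was -0.43 ± 0.10 over both arms (adjusted p = 0.282), -0.60 ± 0.14 in mock cells and -0.27 ± 0.14 in p25alpha cells. Ube2c, the ubiquitin-conjugating enzyme that works with the complex, read, in mock cells, 1009, 1091 and 752 in experiment 1 and 863, 587 and 567 in experiment 2. In p25alpha cells it read 1157, 897 and 579.6 in experiment 1 and 863, 565 and 501 in experiment 2. Each 16 h signal was below each 8 h signal, and the mock array at 12 h of experiment 1 was above its 8 h array. Ube2c differed by -0.70 ± 0.13 (adjusted p = 0.224), by -0.89 ± 0.19 in p25alpha and -0.52 ± 0.19 in mock cells. Pttg1 (securin), which holds separase inactive until anaphase, differed by -0.22 ± 0.09.

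At centromere and kinetochore, 5 genes had a median of -0.43, and 4 were lower at an unadjusted p under 0.05. Cenpf, a large kinetochore protein, is named through the title of its probe set, which calls it similar to LEK1. It read, in mock cells, 740.4, 650.3 and 446 in experiment 1 and 1207, 949.8 and 857 in experiment 2. The p25alpha arrays gave 629.5, 599.8 and 509.5 in experiment 1 and 1024, 841 and 821 in experiment 2. Experiment 2 was higher throughout, and within every series each later array was lower, the difference being -0.46 ± 0.10 (adjusted p = 0.282). Spc25, a subunit of the NDC80 complex that grips microtubules, read, in mock cells, 852, 853 and 733 in experiment 1 and 803, 665 and 577 in experiment 2. Its p25alpha signals were 856, 847 and 652 in experiment 1 and 819.7, 684 and 529.7 in experiment 2. Its 16 h arrays all lay below its 8 h arrays, and experiment 1 was level until 12 h in both arms (-0.43 ± 0.09 over both arms, adjusted p = 0.282). Cenpa, the histone variant of centromeres, differed by -0.44 ± 0.13, Cenpe, a kinetochore kinesin, by -0.43 ± 0.15, and Nuf2, another NDC80 subunit, by -0.21 ± 0.11.

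Genes of chromosome structure were mixed in size, with a median of -0.31 over 5 genes. Top2a, topoisomerase II alpha, which untangles sister chromatids, read, in mock cells, 1474, 1368 and 1101 in experiment 1 and 2012, 1888 and 2028 in experiment 2. The p25alpha arrays gave 1266, 895 and 701 in experiment 1 and 1866, 1445 and 1484 in experiment 2. Both p25alpha series and the mock series of experiment 1 were lower at 16 h, and the mock series of experiment 2 was not, which gave -0.40 ± 0.13. Other Top2a probe sets gave -0.57 ± 0.16 and -0.03 ± 0.15, so they disagree on whether Top2a differed. Mki67 encodes Ki-67, the common marker of cycling cells, and its probe set is also assigned to RGD1564824 and RGD1566252. It read, in mock cells, 1202, 1049 and 1097 in experiment 1 and 2028, 1672 and 1717 in experiment 2. Its p25alpha signals were 1113, 1127 and 1119 in experiment 1 and 1814, 1702 and 1599.6 in experiment 2. Signals of experiment 2 were all above those of experiment 1, and the difference with time was -0.14 ± 0.08. Of the condensin subunits, which compact chromosomes, Smc4 differed by -0.49 ± 0.14, Ncapd2 by -0.31 ± 0.15 and Smc2 by -0.07 ± 0.11.

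Spindle midzone and cytokinesis genes had a median of -0.36, and 3 of 4 were lower at an unadjusted p under 0.05. Nusap1, a microtubule-bundling protein of the spindle, read, in mock cells, 789, 422 and 457 in experiment 1 and 1086, 782 and 684 in experiment 2. The p25alpha arrays gave 558, 547 and 404 in experiment 1 and 1013, 573 and 494 in experiment 2. It had the largest difference with time of the 33 genes (-0.74 ± 0.15, adjusted p = 0.274), and the 8 h array of p25alpha experiment 1 lay below the mock 16 h array of experiment 2. Prc1, which crosslinks midzone microtubules, read, in mock cells, 1701, 1524 and 1334 in experiment 1 and 1946, 1731 and 1572 in experiment 2. Its p25alpha signals were 1559.7, 1308 and 1050.1 in experiment 1 and 1771, 1349.6 and 1366 in experiment 2. The 16 h array was lowest in both mock series and in p25alpha experiment 1, and the difference was -0.40 ± 0.09 (adjusted p = 0.282). Racgap1, a subunit of centralspindlin, differed by -0.11 ± 0.08 by its brightest probe set and by -0.30 ± 0.09 by another. Hmmr, a hyaluronan receptor that also binds spindle microtubules, differed by -0.32 ± 0.10. Another Hmmr probe set gave -0.37 ± 0.11, with -0.55 ± 0.16 in mock and -0.19 ± 0.16 in p25alpha cells.

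**Figure D4:**
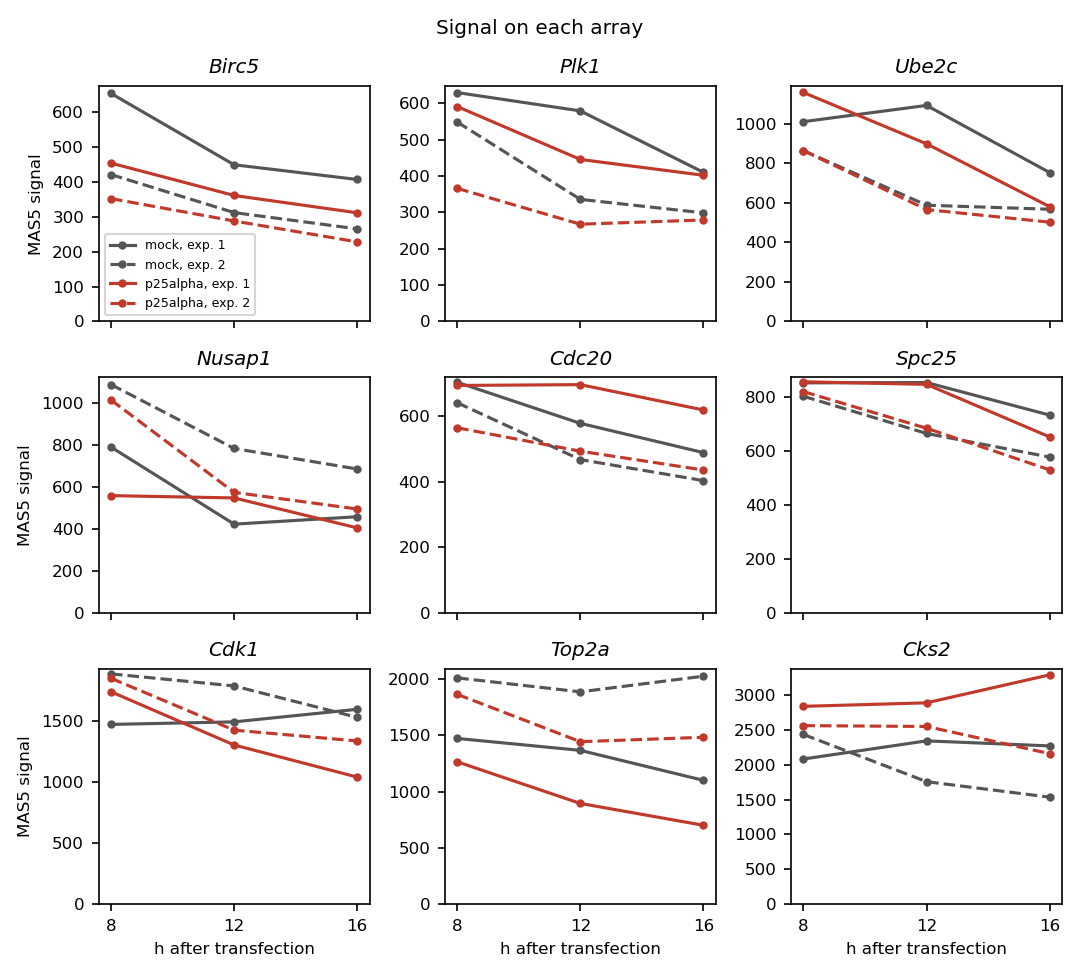
MAS5 signal (y axis, from 0) at 8, 12 and 16 h (x axis) of 9 genes, with 1 line per arm and experiment. Birc5 is lower at each step in all 4 series, Cdk1 in both p25alpha series and in the mock series of experiment 2, and Cks2 is higher in p25alpha than in mock cells in each of the 6 pairs.

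The difference with time was spread over both intervals. Between 8 and 12 h the median of the 33 genes was -0.18 with 7 lower at an unadjusted p under 0.05 (Plk1, Birc5, Cdc20, Ube2c, Prc1, Nusap1 and Hmmr; all tested 3.45%). Between 12 and 16 h it was -0.16 with 4 lower (Birc5, Ube2c, Cenpf and Spc25; all tested 2.29%), and 0 genes passed the adjusted threshold in either interval (all tested 0.0052% and 0%). Without replicate 1 of the p25alpha arrays at 12 h the second median was -0.10. Birc5 and Cenpf were lower at each of the 2 steps in 4 of 4 series (all tested 0.473%), 14 further genes in 3 of 4 (3.55%), and 0 genes in no series (43.4%).

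The authors' deposited table holds change calls between single arrays, which come from the same arrays and are no independent measurement, for 8 pairs of neighbouring times. From 8 to 12 h in p25alpha cells the authors' deposited table called 13 of the 33 genes decreased in experiment 2 (all tested 1.54%), among them Plk1, Birc5, Cdc20, Ube2c and Nusap1, but only Prc1 in experiment 1 (3.98%). From 12 to 16 h in p25alpha cells 10 were called decreased in experiment 1 (1.05%) in the authors' deposited table, among them Cdk1, Aurka, Spc25 and Top2a, and 4 in experiment 2 (1.22%). In mock cells between 8 and 12 h the authors' deposited table called 7 decreased in experiment 1 (5.4%) and 9 in experiment 2 (1.05%). Between 12 and 16 h it called 1 decreased in experiment 1 (3.36%) and 3 in experiment 2 (2.36%), again from the authors' deposited table. The counts differed between the experiments within each arm and interval. Smc2 between 12 and 16 h in mock cells of experiment 1 was the 1 call of an increase in the authors' deposited table (all tested 2.09%). In the other 7 comparisons there were 0, where the shares of all tested probe sets called increased in the authors' deposited table were 1.13% and 2.29% (p25alpha, 8 to 12 h), 0.494% and 0.956% (p25alpha, 12 to 16 h), 2.43% and 2.23% (mock, 8 to 12 h) and 2.28% (mock, 12 to 16 h, experiment 2).

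The arms were then compared for their difference with time. In mock cells 31 of 33 genes had estimates below 0 (all tested 53.1%), with a median of -0.35 and 14 lower at an unadjusted p under 0.05 (4.34%). In p25alpha cells 33 of 33 did (52.6%), with a median of -0.34 and 12 lower (3.97%). No gene passed the adjusted threshold in either arm (all tested 0% in both). Without replicate 2 of the p25alpha arrays at 16 h the p25alpha median was -0.18. The difference between the arms had a median of 0.04, ranged from -0.51 ± 0.20 for Cdk1 to 0.43 ± 0.19 for Hmmr, and passed the threshold for 0 genes (all tested 0%). At an unadjusted p under 0.05 Cdk1 was lower (367 of 19248 tested probe sets, 1.91%) and 0 genes were higher (456 of 19248). The median of this difference was 0.18 without replicate 2 and -0.12 without replicate 1 of the p25alpha arrays at 16 h, so it has no settled sign.

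The second question was whether p25alpha changed these transcripts at matched times. Over the 3 times the 33 genes had a median of -0.04 (all tested 0.01), with 21 estimates below 0 (47.3%), from -0.40 ± 0.11 for Top2a to 0.40 ± 0.12 for Cks2. No gene passed the adjusted threshold, where 0.239% of all tested probe sets did. At an unadjusted p under 0.05, 6 genes were lower in p25alpha cells (Plk1, Aurka, Birc5, Bub3, Top2a and Prc1; all tested 5.86%) and 1 was higher (Cks2; 8.14%). Lower in 6 of 6 pairs were 5 of these genes, Aurka being the exception (5.01%), and Cks2 and Ttk were higher in 6 of 6 (5.99%). The counts of higher genes were thus below the share of all tested probe sets by unadjusted p and about equal to it by pairs. In 0 genes were all p25alpha arrays below or above all mock arrays (all tested 0.265% and 0.431%).

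Top2a, with the values given above, was lower in p25alpha than in mock cells in each pair, with fitted differences of -0.16 ± 0.18 at 8 h, -0.50 ± 0.18 at 12 h, -0.55 ± 0.18 at 16 h and -0.40 ± 0.11 over all times (limma unadjusted p = 0.00647, adjusted p = 0.196). Its other probe sets gave -0.43 ± 0.13 and 0.03 ± 0.13. Birc5 differed by -0.30 ± 0.07 (adjusted p = 0.181), most at 8 h (-0.39 ± 0.13). Bub3 differed by -0.28 ± 0.07 (adjusted p = 0.197), -0.11 ± 0.13 at 8 h and -0.43 ± 0.13 at 16 h, and its dimmer probe set by -0.21 ± 0.11. Incenp differed by -0.22 ± 0.11 by its brightest probe set. Its dimmer probe sets gave -0.42 ± 0.08 (limma unadjusted p = 0.00109) and -0.14 ± 0.13.

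Plk1 differed by -0.25 ± 0.10 (adjusted p = 0.322), with -0.34 ± 0.17 at 8 h and -0.06 ± 0.17 at 16 h. Prc1 differed by -0.23 ± 0.07 (adjusted p = 0.242), and Aurka by -0.26 ± 0.08 (adjusted p = 0.244), of which -0.53 ± 0.14 was measured at 16 h. On the other side stood Cks2, whose mock series read 2083, 2344 and 2271 in experiment 1 and 2436, 1758 and 1535 in experiment 2. The p25alpha series read 2839, 2889.8 and 3292 in experiment 1 and 2562, 2551 and 2160.1 in experiment 2. Each p25alpha array was above its mock array, by 1.32-fold in the fit (0.40 ± 0.12, limma unadjusted p = 0.0147, adjusted p = 0.247), although mock experiment 2 at 8 h exceeded p25alpha experiment 2 at 16 h. Ttk differed by 0.19 ± 0.09 and Ccnb1 by 0.25 ± 0.13, but the second Ccnb1 probe set gave -0.10 ± 0.07. Under the same 3 settings as above, 2, 4 and 3 of the genes passed. In all, 357 of the fewer probe sets kept by the filter passed, and 466 and 419 of all tested probe sets under the other 2 settings. Of the genes Top2a alone passed under each of the 3 settings, with Birc5, Bub3 and Cks2 each under 2.

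**Figure D5:**
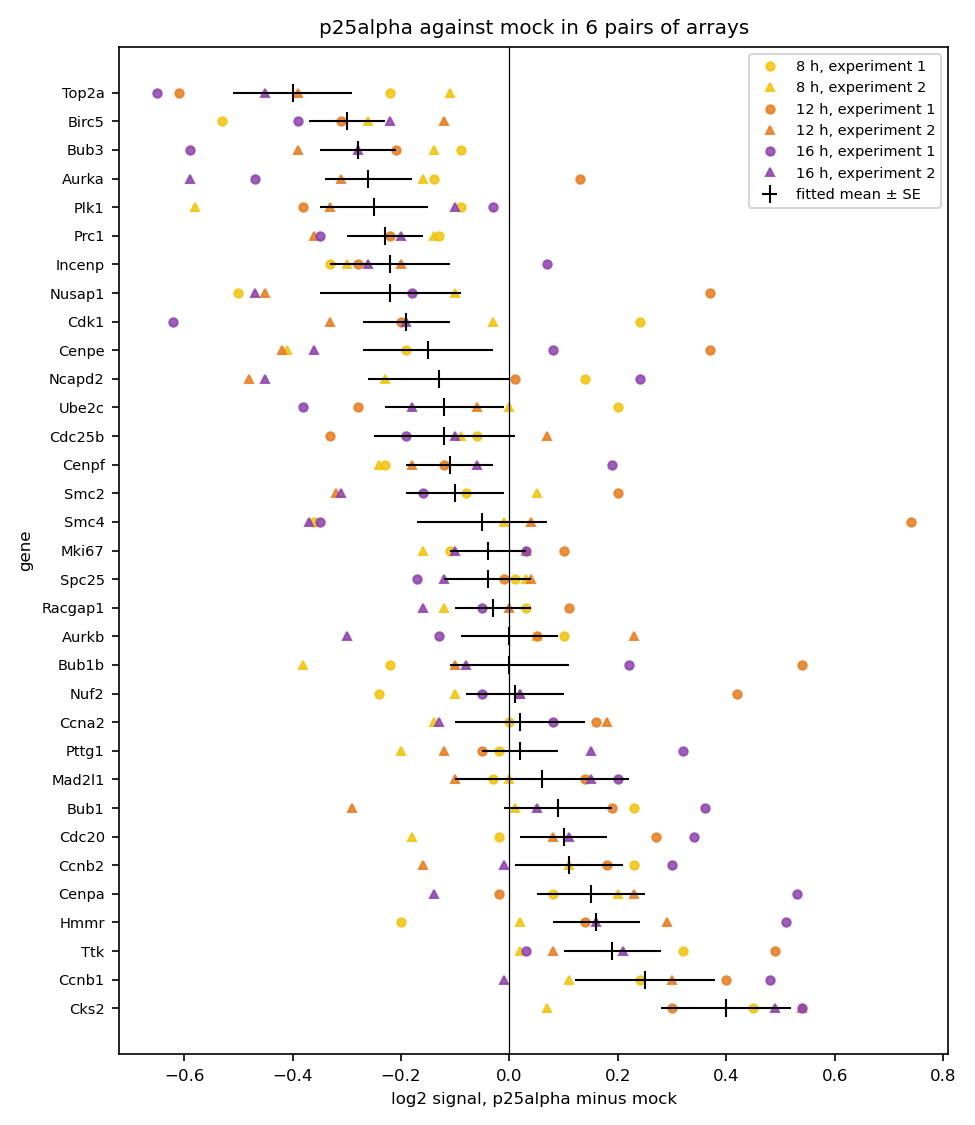
Log2 signal in p25alpha minus mock cells (x axis) for the 33 genes (y axis, ordered by the fitted mean), with 1 point per time and experiment and the fitted mean ± SE as a black bar. The points of Top2a, Birc5, Bub3, Plk1 and Prc1 all lie left of 0 and those of Cks2 and Ttk all right of 0.

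At single times the median between p25alpha and mock cells was -0.09 at 8 h, -0.02 at 12 h and -0.10 at 16 h, and 0 genes passed (all tested 0% at 8 h and 0.0571% at 12 and 16 h). At an unadjusted p under 0.05 Birc5 was lower at 8 h (2.1%) and Top2a at 12 h (3.78%). At 16 h Cdk1, Aurka, Bub3 and Top2a were lower (3.61%) and Cks2 and Hmmr higher (5.05%). The counts at 8 and 12 h, and of higher genes at 16 h, were near these shares. Over all times Hmmr differed by 0.16 ± 0.08 by the probe set used and by 0.01 ± 0.09 by another. The 12 h median was -0.11 or 0.10 when replicate 1 or replicate 2 of the p25alpha arrays at that time was left out, and the 8 h median lost its sign without replicate 2 of the mock arrays at 8 h.

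The authors' deposited table also calls p25alpha against mock arrays in 6 comparisons. Cks2 was called increased in 5 of them in the authors' deposited table, the exception being 8 h in experiment 2. At 8 h the authors' deposited table called 1 of the 33 genes decreased in each experiment, Nusap1 (all tested 2.99%) and Mki67 (0.239%), with 1 and 0 increased (2.46% and 0.935%). At 12 h in experiment 1 it called 0 decreased (4.3%) and 6 increased (3.03%), Ccnb1, Cks2, Ttk, Cdc20, Smc2 and Smc4, in the authors' deposited table. At 12 h in experiment 2 the authors' deposited table called Cenpe decreased (2.56%) and Cks2 increased (2.91%). At 16 h it called 5 decreased in experiment 1 (2.31%), Cdk1, Bub3, Ube2c, Top2a and Prc1, and 4 in experiment 2 (1.56%), Ube2c, Smc2, Top2a and Prc1, in the authors' deposited table. Ube2c, Top2a and Prc1 were thus called decreased in both experiments at 16 h in the authors' deposited table, where 2 genes in experiment 1 (Cks2 and Hmmr, 2.94%) and 1 in experiment 2 (Cks2, 1.49%) were called increased.

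The experiments differed in the level of many of these genes. In 20 of 33 genes (60.6%, all tested 47.6%) the sign of the difference was the same in 6 of 6 groups, with 12 higher and 8 lower in experiment 2. Smc2 was higher by 1.18 ± 0.19 (SD over 6 groups), Cenpe by 0.80 ± 0.31, Top2a by 0.69 ± 0.25 and Mki67 by 0.65 ± 0.08 on the log2 scale. Plk1 differed by -0.57 ± 0.22, Birc5 by -0.49 ± 0.13 and Ube2c by -0.47 ± 0.27. The actin ratio of experiment 2 was above that of experiment 1 in all 6 groups, and its part in these differences was not tested.

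Other genes of the cell cycle were set beside the 33. Of 72 other mitosis genes 46 were measured, with a median between 16 and 8 h of -0.24, 16 lower and 1 higher at an unadjusted p under 0.05 (all tested 5.71% and 4.38%) and 0 past the threshold. Spag5 (astrin, a spindle protein) differed by -0.55 ± 0.08, Cdca2 (a chromatin-bound phosphatase subunit) by -0.68 ± 0.12, Tacc3 (a spindle-stabilising protein) by -0.65 ± 0.14 and Aspm (a spindle pole protein) by -0.45 ± 0.11. Tacc3 also had the smallest p of these 46 genes between p25alpha and mock cells (-0.51 ± 0.12, limma adjusted p = 0.162).

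The same shares of all tested probe sets, 5.71% lower and 4.38% higher, stand beside the counts of the next lists, and 0 of their genes passed the threshold with time. Over 28 S phase genes the median between 16 and 8 h was -0.05, with 2 lower (Gins1 and Uhrf1) and 2 higher (E2f1 and Rrm2) at an unadjusted p under 0.05. Gins1, a subunit of the replication helicase, differed by -0.37 ± 0.11, Uhrf1, which maintains DNA methylation, by -0.27 ± 0.10, E2f1, a transcription factor of S phase entry, by 0.34 ± 0.14 and Rrm2, a ribonucleotide reductase subunit, by 0.24 ± 0.10. Over 12 genes of the anaphase promoting complex the median was -0.09, with 2 lower and 1 higher. Its subunit Cdc27 differed by -0.71 ± 0.18, Cdc26 by 0.29 ± 0.11, the activator Fzr1 by -0.45 ± 0.17 and Anapc1 by -0.22 ± 0.12. Over 5 cohesin genes, whose products hold sister chromatids together, the median was -0.06 with 0 lower and 0 higher, from -0.15 ± 0.11 for Stag1 to values nearer 0 for Smc3 (-0.11 ± 0.11), Smc1a (-0.06 ± 0.10) and Pds5b (-0.04 ± 0.08).

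Over 11 transcription factors of the G2/M programme the median was -0.04, with Mybl1 higher (0.32 ± 0.08) and Lin37 lower (-0.28 ± 0.10) at an unadjusted p under 0.05, and with E2f5 at -0.16 ± 0.11 and Nfya at -0.21 ± 0.15. Foxm1, a main activator of G2/M genes that is named here after its values were seen, differed by 0.07 ± 0.22. A list of 13 genes held CDK inhibitors and G1 cyclins together with Cdk2, Cdk4, Cdk6, Rb1, Gadd45a and Btg2. Its median was 0.18, with 2 lower (Cdkn2d and Cdkn2c) and 5 higher (Cdkn1b, Ccnd1, Ccnd2, Gadd45a and Btg2). The inhibitors Cdkn2d (p19) and Cdkn2c (p18) differed by -0.50 ± 0.10 and -0.27 ± 0.08, while Cdkn1b (p27) differed by 0.29 ± 0.09 and Ccnd2 (cyclin D2) by 0.36 ± 0.11. The inhibitors of this list thus lay on both sides of 0.

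Between p25alpha and mock cells 2 of the 115 genes tested in these 6 lists passed (1.74%, all tested 0.239%). Mcm6, a subunit of the replication helicase, fell by 0.62 ± 0.07 on the log2 scale (limma adjusted p = 0.0333, lower in 6 of 6 pairs). Btg2, an antiproliferative gene, rose by 1.08 ± 0.11 (limma adjusted p = 0.0255, higher in 6 of 6 pairs) but was present on only 3 of 12 arrays. Each of its mock signals lay below each of its p25alpha signals. Which 3 arrays were called present is not given here. The size of the Btg2 difference, and its place among the 2 genes that passed, thus rest mostly on signals not called above background. In the lists where 0 genes passed, the smallest p was that of Tacc3 given above, of Lin52, a subunit of the MuvB complex (0.61 ± 0.09, limma adjusted p = 0.0843), of Cdc27 (-0.44 ± 0.14, adjusted p = 0.26) and of the cohesin subunit Stag2 (-0.29 ± 0.07, adjusted p = 0.165).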

How the data were processed

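Total RNA of the 12 samples was labelled as biotinylated cRNA, per the labels' protocols. The deposited intensity values are MAS5 signals with detection calls, per the file headers and the submitters' processing notes, with no version stated in the sources used here. Their 2% trimmed mean was 150.1 on every array, so the authors scaled the arrays alike. The authors also deposited signal log ratios (log2) with change calls between pairs of arrays, per the file headers, of which the calls were used. Of a second deposited table, the same signals as whole numbers, 3 probe sets were not analysed here.

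Groups and experiment numbers come from the sample titles. Signals were floored at 0.1 and log2 was taken, which makes dim probe sets noisy. The test took probe sets called present on 2 or more arrays (19248 of 31096, 61.9%), and 57 control probe sets were left out. Symbols were updated with the RefSeq table of GRCr8 genes, and 20122 probe sets have 1 symbol, 333 several and 10641 none. Older symbols were read as Cdc2a for Cdk1, Stk6 for Aurka, Cdca1 for Nuf2 and Spbc25 for Spc25, among others. The model, fitted with lmFit and eBayes of limma 3.58.1 in R 4.3.3, had 6 group means and the experiment as a block, with Benjamini-Hochberg adjusted p-values over all tested probe sets and a threshold of 0.05. The experiment numbers were taken to pair the arrays because the labels number them, arrays of one number deviated from their groups together (correlations of 0.47 to 0.57 in 15 pairs of groups), and the first principal component (42% of the variance) separated the experiments. The code was tested on simulated data.

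The 40 genes, the other lists, the motifs and the rule for named genes were chosen with earlier results of these data known. Values on every array are given for Cdk1, Ccnb1, Cdc20, Plk1, Aurka, Birc5, Top2a and Mki67, and for the 6 genes with the smallest p with time and the 6 with the smallest p between p25alpha and mock cells, none of which passed. Of each other list the 4 genes with the smallest p with time are named, and the 1 with the smallest p between p25alpha and mock cells. Alternatives were no block, quantile normalization, median centring, no filter, moderation with trend and robust, an offset of 50, a filter at the median signal, averaging the probe sets of a gene, and the omission of each array in turn. Plots were made with matplotlib 3.10.9 in Python 3.11.15.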

Additional observations from a re-analysis of the deposited data

How the results depend on the processing

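With 2 arrays per group, the alternatives moved what passed the adjusted threshold more than the estimates. Beside the 0 genes that passed with the main settings, a filter at the median signal, which kept 32 of the 33 genes, called 1 between 16 and 8 h in mock cells, 8 over both arms and 2 between p25alpha and mock cells over all times. Of all probe sets that the filter kept, 50, 150 and 357 passed in these comparisons. With an offset of 50 added before the log the counts were 2 in mock cells, 1 in p25alpha cells, 8 over both arms and 4 between p25alpha and mock cells. Of all tested probe sets 77, 43, 176 and 466 passed there. Moderation with trend and robust gave 3, 2, 8 and 3 in the same order, where 65, 45, 164 and 419 of all tested probe sets passed. The offset also moved the median to -0.32 between 16 and 8 h and to -0.13 between 16 and 12 h. Without the replicate block, which drops the pairing by experiment, 8 genes in place of 21 were lower at an unadjusted p under 0.05 between 16 and 8 h, 0 passed, and the median was -0.38 as before. The share of all tested probe sets at that unadjusted p is not given here for this setting. Over all tested probe sets the calls without the block were 0 in place of 3 between 16 and 8 h and 4 in place of 46 between p25alpha and mock cells, and 0 and 17 when dim probe sets were kept. Quantile normalization, median centring, no filter and averaging the probe sets of a gene left the count of the 33 genes past the threshold at 0 in these 2 comparisons.

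Leaving out each array in turn, which leaves a group with 1 array that is assumed to vary like the others, gave 15 to 21 genes lower at an unadjusted p under 0.05 between 16 and 8 h. The median between 16 and 8 h lay between -0.38 and -0.32 over both arms, between -0.44 and -0.25 in mock cells and between -0.37 and -0.18 in p25alpha cells. It lay between -0.22 and -0.15 for 12 against 8 h and between -0.19 and -0.10 for 16 against 12 h. Between p25alpha and mock cells it lay between -0.06 and -0.01 over all times, between -0.14 and -0.00 at 8 h, between -0.11 and 0.10 at 12 h and between -0.13 and -0.04 at 16 h. The difference of the arms' time effects lay between -0.12 and 0.18. With any 1 array left out, 0 of the 33 genes passed the adjusted threshold in these comparisons. The causes of these movements were not tested.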
